A study of Mus musculus with 9 samples.

Results

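Through 10 mouse genes TGF-beta is stored, released and sensed around integrin alpha-v beta-8: the integrin subunits Itgb8 and Itgav, the ligands Tgfb1, Tgfb2 and Tgfb3, the latency partners Ltbp1 and Nrros, the receptors Tgfbr1 and Tgfbr2 and the signal carrier Smad3. They are 10 of the 27179 genes counted by bulk RNA sequencing in tissue punches of the hypothalamic paraventricular nucleus (PVN). All 9 samples came from wild-type male C57BL/6 mice (C57BL/6J in the study's methods), with 3 independent mice in each of 3 groups, started on their diet at postnatal day 35. Control mice ate a diet with 16% of kcal from fat for 12 weeks, and HFD mice ate a diet with 60% of kcal from fat for 12 weeks. HFD+Mino mice ate the same high fat diet for 12 weeks and drank minocycline, a tetracycline antibiotic that dampens microglial activation, at 40 mg/kg per day over the last 6 weeks. A punch pools neurons, glia and vessel cells, so it is no model of 1 cell type. Itgb8 was chosen by its high level in the HFD samples in the comparison of the 3 groups, so its values and its place in counts of called genes are a description that supports nothing. The other 9 genes were listed with it for their function, with earlier results of these data known.

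TGF-beta ligands are secreted with their own propeptide wrapped around them, and this latent complex cannot reach its receptors. In the brain, latent TGF-beta 1 is held on microglia by the transmembrane protein encoded by Nrros or in the matrix by latent TGF-beta binding proteins such as that of Ltbp1. Integrin alpha-v beta-8 on neighbouring glia, endothelium or neurons grips an arginine-glycine-aspartate (RGD) triplet in the propeptide and exposes the ligand. The ligand then joins the type II receptor (Tgfbr2) to the type I receptor (Tgfbr1), which phosphorylates SMAD3 so that it enters the nucleus with SMAD4. In the adult brain this pathway is known for keeping microglia in their resting state.

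The coding stretch around the RGD triplet is shown for the 3 ligands because it is where the integrin takes hold, and because the 3 ligand genes stood differently in these samples. The sequences are those of GENCODE M21 transcripts on GRCm38, 5′ to 3′ on the coding strand. Capitals mark the RGD codons of Tgfb1 and Tgfb3 and, in Tgfb2, the 3 codons aligned with those of Tgfb3.
Tgfb1: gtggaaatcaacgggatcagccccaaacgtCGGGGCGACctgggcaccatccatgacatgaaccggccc
Tgfb3: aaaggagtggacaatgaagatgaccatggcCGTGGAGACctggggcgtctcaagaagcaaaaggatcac
Tgfb2: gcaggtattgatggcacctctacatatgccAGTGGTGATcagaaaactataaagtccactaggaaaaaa
The Tgfb1 stretch lay at chr7:25696983-25697180 on the plus strand, across the junction of exons 4 and 5, with the triplet starting at codon 244. The Tgfb3 stretch lay at chr12:86062135-86063824 on the minus strand, across the junction of exons 4 and 5, with the triplet at codon 261. The Tgfb2 stretch lay at chr1:186630723-186632461 on the minus strand, across the junction of exons 5 and 6, and no RGD codons were found anywhere in its reading frame. Each span includes the intron between its exons.

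The libraries held 17728590 to 42326213 counts, a depth at which 3 counts in the library of HFD replicate 2, the one with no Tgfb1 count, correspond to 0.0870 counts per 1000000 (CPM). The HFD libraries were the most alike (mean r on the log2 CPM scale with the rest of their group 0.981 to 0.987). HFD+Mino replicate 3 resembled the Control group (0.971) and the HFD group (0.955) more than its own (0.943). Control replicate 3 was about as near to the HFD group (0.966) as to its own (0.964). The summed CPM of 5 PVN neuropeptide and regional markers ran from 27.8 to 2560 for Control, from 2480 to 3720 for HFD and from 3100 to 37700 for HFD+Mino, so Control replicate 1, at 27.8, held few transcripts that define the PVN. The 45S ribosomal precursor Rn45s stood at 3477 to 3829 CPM in HFD, 239 to 461 CPM in Control and 426 to 1346 CPM in HFD+Mino. The part of these differences between libraries in the results was not tested, apart from the fits without single libraries. No pair of samples of a group was alike within counting error.

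By the edgeR quasi-likelihood test the 9 genes other than Itgb8 were not called in any comparison. All 10 passed the filter on low counts. Itgb8 had been chosen as higher in HFD in the 3-way comparison, where 0.917% of the 17344 genes tested were called HFD-higher and 1.21% HFD-lower. A gene was called at a false discovery rate (FDR) under 0.01 over all genes tested and a change of at least 1.5-fold. Of the other 9 genes, 0 were called in the 3-way comparison by the edgeR quasi-likelihood test, although 6 had an unadjusted p under 0.05, and DESeq2 and the edgeR likelihood ratio test each called 3 of them (Tgfb1, Tgfbr2 and Smad3). These tools called 13.5% and 12.9% of all genes there. In HFD against Control, 0.317% of all genes were called higher and 1.42% lower. Of the other 9 genes 0 were called there, with 5 at an unadjusted p under 0.05 and 1, Tgfb1, called by each of the other tools, which called 6.84% (DESeq2) and 5.57% (likelihood ratio) of all genes. In HFD+Mino against HFD, 1.98% of all genes were called higher and 2.16% lower. Again 0 of the 9 were called, with 6 at an unadjusted p under 0.05, while DESeq2 called 3 (Tgfb1, Tgfbr2 and Smad3) among 22.4% of all genes and the likelihood ratio test called 2 (Tgfb1 and Tgfbr2) among 19.1%. The median log2 change of the 10 genes, Itgb8 included, was 0.78 in HFD against Control (all genes 0) and −0.87 in HFD+Mino against HFD (all genes 0.01). Without Control replicate 1 the counts of called members were the same in all 4 comparisons. Without HFD+Mino replicate 3 the counts, Itgb8 included, were 3 in the 3-way comparison, 2 in HFD against Control, 4 in HFD+Mino against HFD and 0 in HFD+Mino against Control, where 13.4%, 3.08%, 21.4% and 6.28% of all genes were called. Without HFD replicate 1, 2 or 3 the count was 0 in the 3-way comparison, with 10, 14 and 3 of all genes called. In HFD against Control it was 0 without any 1 of these samples and without Control replicate 2 or 3.

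**Figure D1:**
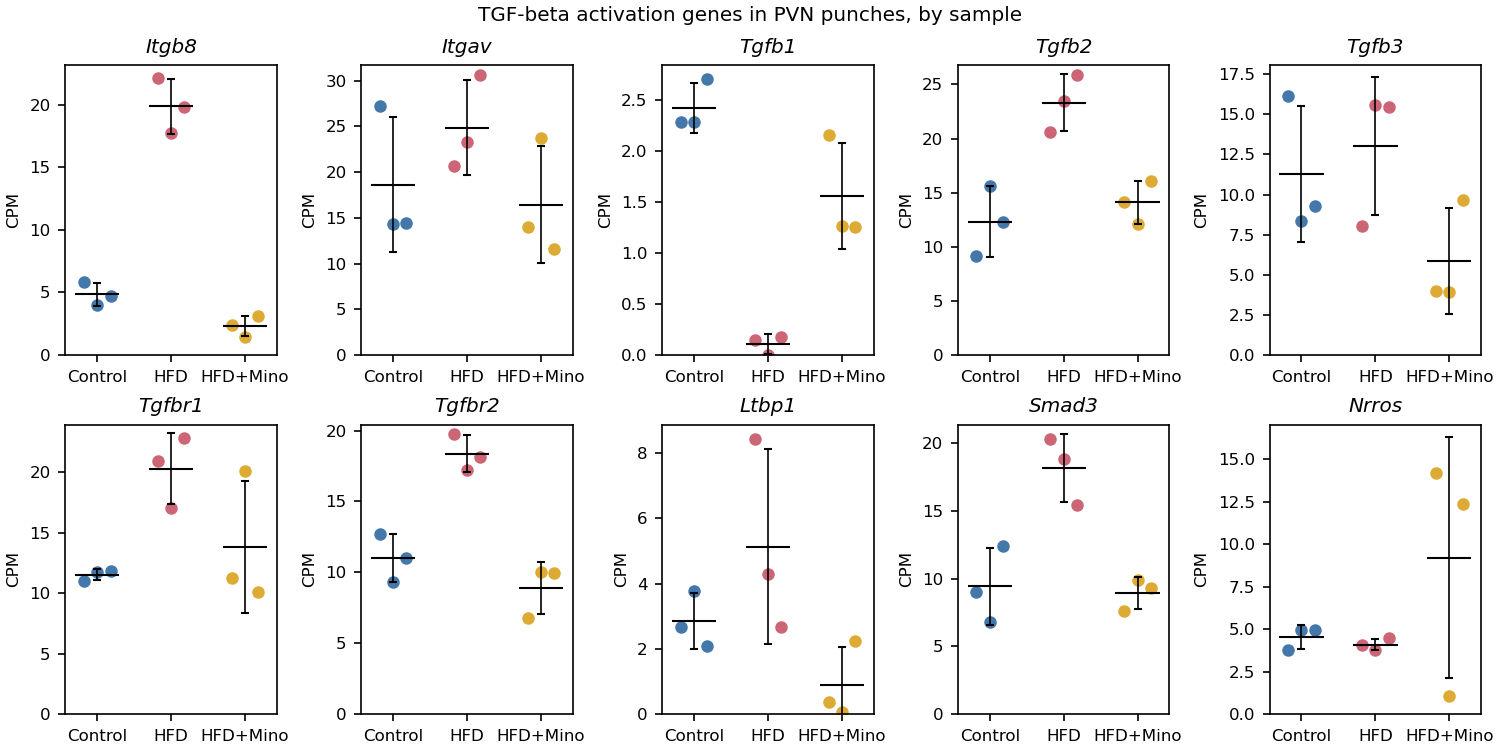
Level of each of the 10 genes in CPM in each sample, 3 samples per group, with the group mean (line) and SD (bar); each vertical axis starts at 0 and has its own scale. Itgb8 lay between 17.7 and 22.1 CPM in HFD and at or below 5.86 CPM elsewhere, and Tgfb1 lay at or below 0.174 CPM in HFD and at or above 1.26 CPM elsewhere.

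Itgb8 encodes the beta-8 subunit, which pairs with alpha-v alone. Its gene lies at chr12:119162803-119238276 on the minus strand of GRCm38 (Entrez 320910). It stood at 5.86, 4.01 and 4.68 CPM in Control replicates 1 to 3, at 22.1, 17.7 and 19.8 CPM in HFD and at 2.40, 1.45 and 3.09 CPM in HFD+Mino. The HFD samples lay above all the others, and the HFD+Mino samples lay below all Control samples. The group means were 4.85 ± 0.938 for Control, 19.9 ± 2.21 for HFD and 2.31 ± 0.822 for HFD+Mino (SD, n = 3). The fitted level was 4.1-fold higher in HFD than in Control and 8.56-fold lower in HFD+Mino than in HFD. In bulk tissue, fewer cells of a type and less RNA per cell cannot be told apart, for this gene and for all that follow.

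Itgav, which encodes the alpha-v subunit shared by 5 beta subunits among those counted (Itgb1, Itgb3, Itgb5, Itgb6 and Itgb8), was not called. It stood at 27.2, 14.3 and 14.5 CPM in Control, 20.6, 23.3 and 30.7 CPM in HFD, and 14.0, 23.7 and 11.6 CPM under HFD+Mino, so that all 3 groups overlapped. The log2 change was 0.42 ± 0.347 (SE) in HFD against Control (FDR 0.534) and −0.60 in HFD+Mino against HFD (FDR 0.218). Per kb of exon, the Itgb8 level was 26.6 ± 5.34% of the Itgav level in Control, 80.2 ± 21.3% in HFD, and 16.1 ± 9.99% under HFD+Mino (SD, n = 3). The ratio did not overlap between HFD (62.8% to 104%) and the other groups (5.93% to 31.5%). Since Itgb8 was chosen by its high HFD level, this separation follows the choice and is a description only. The exons of Itgav share 634 nt with Gm13684 on the opposite strand, and reads of the pair cannot be told apart because the library kit does not mark strand.

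Among the ligand genes, the HFD samples lay below all others for Tgfb1 and above all others for Tgfb2. Tgfb1 (chr7:25687002-25705077 on the plus strand), whose product is the ligand that microglia hold through Nrros, had 92, 81 and 92 counts in the Control libraries, 3, 0 and 7 in HFD and 63, 34 and 46 in HFD+Mino. As CPM these were 2.29, 2.29 and 2.71 in Control, 0.151, 0 and 0.174 in HFD, and 2.16, 1.26 and 1.26 under HFD+Mino. All 3 HFD samples lay below the 6 others, as did those of 9.62% of all genes tested. The fitted log2 change in HFD against Control was −4.47 ± 0.822 (SE), a level 22.1-fold lower, with an FDR of 0.01001, just short of the threshold. In HFD+Mino against HFD it was 3.83 ± 0.813 (SE), a level 14.2-fold higher, with an FDR of 0.0112. These folds rest on 10 counts in the HFD group. When the replicate number entered the fit as a block for the Control and HFD+Mino samples, which deviated together by number, Tgfb1 was called lower in HFD in the 3-way comparison (FDR 0.00738), in HFD against Control (FDR 0.00791) and in HFD+Mino against HFD, where it was higher in HFD+Mino (FDR 0.00591). This fit called 13.2%, 6.22% and 25.6% of all genes in the 3 comparisons. It was also called in all 3 without HFD+Mino replicate 3 (FDR 0.00584, 0.00824 and 0.00493). Tgfb1 stayed uncalled under 14 of 22 alternatives in the 3-way comparison (FDR up to 0.0654). The same held for 13 of 23 in HFD against Control (FDR up to 0.0455). In HFD+Mino against HFD it held for 13 of 23 (FDR up to 0.0459).

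Tgfb2, the ligand without the RGD codons, stood at 9.12, 15.6 and 12.3 CPM in Control, 20.6, 23.5 and 25.8 CPM in HFD, and 14.2, 12.1 and 16.04 CPM under HFD+Mino. All 3 HFD samples lay above the 6 others. The log2 change was 0.92 ± 0.262 (SE) in HFD against Control (FDR 0.0678) and −0.72 in HFD+Mino against HFD (FDR 0.0593), neither past the threshold. Tgfb3, the other ligand with an RGD site, stood at 16.2, 8.36 and 9.30 CPM in Control, 8.03, 15.6 and 15.4 CPM in HFD, and 3.97, 3.90 and 9.64 CPM under HFD+Mino. Its groups overlapped, with a log2 change of 0.21 ± 0.431 (SE) in HFD against Control (FDR 0.826) and −1.16 in HFD+Mino against HFD (FDR 0.0703), where it was called lower without HFD+Mino replicate 3. Opposite-strand exons overlap both genes, over 124 nt in Tgfb2 (Gm29491) and over 163 and 257 nt in Tgfb3 (Gm37804 and Gm48008).

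Per kb of exon, Tgfb1 was the smallest of the 3 ligand transcripts in every sample. It made up 8.22 ± 1.65% of the summed ligand level in Control, 0.294 ± 0.262% in HFD, and 7.34 ± 3.18% under HFD+Mino (SD, n = 3). With the longest transcript as the length the Tgfb1 shares were 14.3%, 0.536% and 12.4%. The Tgfb2 share was 36.8 ± 12.6% in Control, 51.9 ± 6.84% in HFD, and 55.8 ± 7.45% under HFD+Mino, and the Tgfb3 share was 55.0 ± 13.6%, 47.8 ± 7.07% and 36.9 ± 10.4% (SD, n = 3). The sum of the 3 ligands was 5.94 ± 0.759 CPM per kb in Control, 7.89 ± 1.69 in HFD, and 4.47 ± 1.24 under HFD+Mino (SD, n = 3), with the ranges of Control and HFD overlapping. No test of these shares was made.

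**Figure D2:**
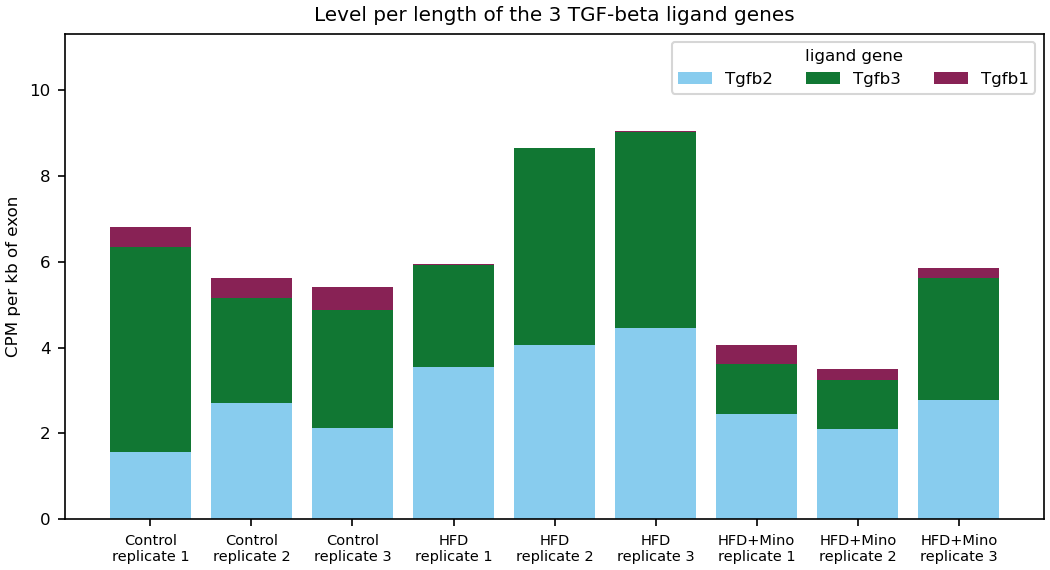
Stacked level of the ligand genes Tgfb2, Tgfb3 and Tgfb1 in CPM per kb of exon (vertical axis from 0) in each of the 9 samples. The Tgfb1 segment is 4.25% to 10.6% of the bar in Control and HFD+Mino samples and at most 0.501% in HFD samples.

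Neither latency partner was called, and both differed widely among the HFD+Mino samples. Nrros, the microglial anchor of latent TGF-beta 1, stood at 3.75, 4.97 and 4.98 CPM in Control and 4.07, 3.77 and 4.46 CPM in HFD, but at 14.2, 1.08 and 12.4 CPM in HFD+Mino. HFD+Mino replicate 2 (29 counts) was thus the lowest and replicates 1 and 3 (414 and 452 counts) the highest of all samples. The summed CPM of 9 microglial markers was 709, 548 and 406 in HFD+Mino replicates 1 to 3. The part of microglia in the Nrros values was not tested. The log2 change of Nrros was −0.15 ± 0.65 (SE) in HFD against Control (FDR 0.917) and 1.17 in HFD+Mino against HFD (FDR 0.202). Without HFD+Mino replicate 2 it was called higher in HFD+Mino than in HFD (log2 1.70, FDR 0.00867). Ltbp1, which tethers latent TGF-beta to the matrix, stood at 2.66, 3.78 and 2.09 CPM in Control, 8.43, 4.29 and 2.66 CPM in HFD, and 0.377, 0.0743 and 2.24 CPM under HFD+Mino. Its 2 lowest HFD+Mino libraries held 11 and 2 counts and the third 82. The log2 change was 0.84 ± 0.822 (SE) in HFD against Control (FDR 0.598) and −2.48 in HFD+Mino against HFD (FDR 0.0549). Without HFD+Mino replicate 3 the latter was −4.46 and Ltbp1 was called.

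The receptor genes and Smad3 all had their highest group mean in HFD, and none was called by the quasi-likelihood test, while DESeq2 called Tgfbr2 and Smad3 in the 3-way comparison and in HFD+Mino against HFD. Tgfbr2, the receptor that binds the ligand first, stood at 12.7, 9.29 and 11.04 CPM in Control, 19.8, 17.2 and 18.1 CPM in HFD, and 6.81, 9.99 and 9.94 CPM under HFD+Mino. Its log2 change was 0.74 ± 0.256 (SE) in HFD against Control (FDR 0.128) and −1.04 in HFD+Mino against HFD (FDR 0.0167), and the latter was called with the replicate block (FDR 0.00727). Tgfbr1, the kinase that Tgfbr2 activates, stood at 11, 11.7 and 11.9 CPM in Control, 20.9, 17.1 and 22.8 CPM in HFD, and 11.2, 20.1 and 10.1 CPM under HFD+Mino. HFD+Mino replicate 2 lay within the HFD range, and the log2 changes were 0.81 ± 0.292 (SE, FDR 0.141) and −0.56 (FDR 0.172). Smad3, which carries the signal from the receptors to the nucleus, stood at 9.04, 6.80 and 12.4 CPM in Control, 20.3, 18.8 and 15.4 CPM in HFD, and 7.63, 9.92 and 9.34 CPM under HFD+Mino. Its log2 changes were 0.95 ± 0.283 (SE, FDR 0.081) and −1.02 (FDR 0.025). For Tgfb2, Tgfbr2 and Smad3 all 3 HFD samples lay above the 6 others, which held for 13.4% of all genes tested.

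HFD+Mino did not differ from Control past the threshold for any of the 10 genes. In this comparison 0% of all genes were called higher and 0% lower by the edgeR quasi-likelihood test, with 3697 genes at an unadjusted p under 0.05, and 271 genes (1.56%) called by DESeq2 and 106 (0.611%) by the edgeR likelihood ratio test. Of the 9 genes other than Itgb8, 0 were called by any of the 3 tools and 0 had an unadjusted p under 0.05. Their log2 changes ran from −1.63 (Ltbp1) to 1.01 (Nrros), with FDR from 0.24 to 0.899, values that do not show equal levels. With the replicate block 551 of all genes (3.18%) were called in this comparison, and 1120 (6.28%) without HFD+Mino replicate 3, with 0 of the 10 among either. Itgb8 had a log2 difference of −1.06 here. HFD against Control and HFD+Mino against HFD share the HFD samples, so opposite signs in the 2 are not independent of each other.

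**Figure D3:**
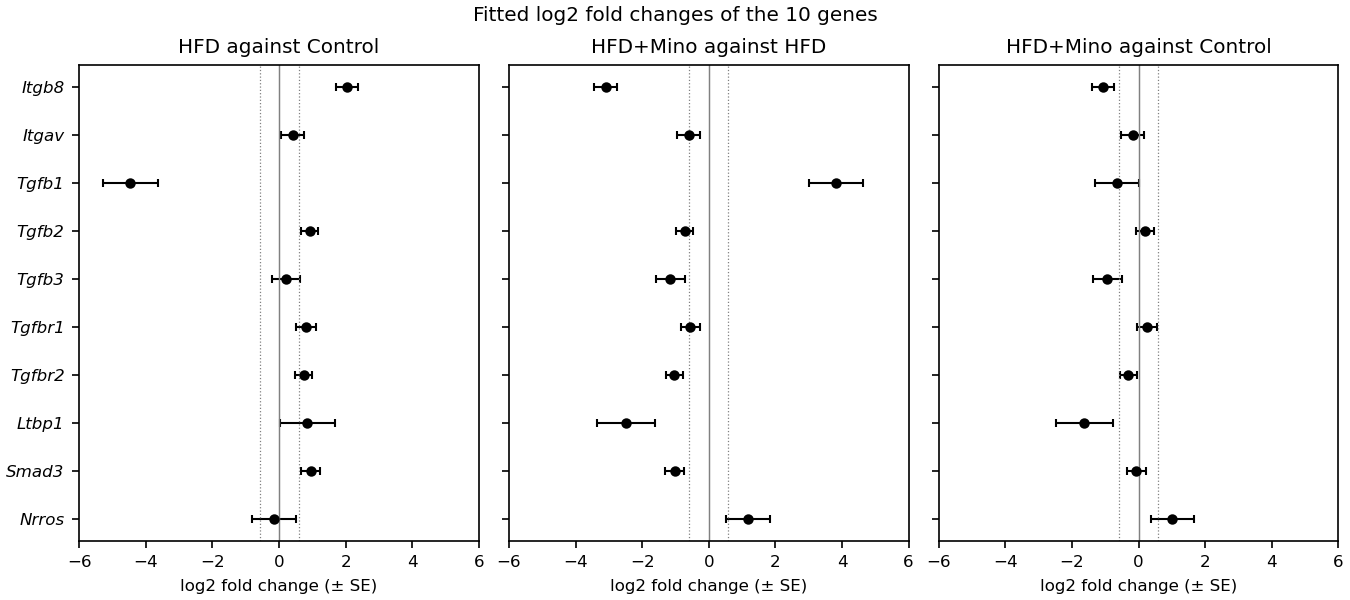
Fitted log2 fold change (horizontal axis) with a standard error derived from its quasi-likelihood test for each of the 10 genes in HFD against Control, HFD+Mino against HFD and HFD+Mino against Control. Dotted lines mark 1.5-fold. Tgfb1 is at −4.47 and 3.83 in the first 2 panels, opposite in sign to Itgb8 at 2.03 and −3.10.

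Per kb of exon, Tgfb2 or Tgfb3 had the highest mean level of the 10 genes in each group. Tgfb3 (3.33 CPM per kb) and Tgfb2 (2.13) led in Control, followed by Tgfbr1 (1.76), Itgav (1.74), Smad3 (1.70), Tgfbr2 (1.34), Nrros (1.09), Tgfb1 (0.481), Itgb8 (0.439) and Ltbp1 (0.266). Of the 9 neighbouring pairs in that order 7 had overlapping sample ranges, and Nrros stood clear of Tgfb1, and Itgb8 of Ltbp1. With the longest transcript as the length neither step was clear. Nrros then reached down to 1.049 and Tgfb1 up to 1.053, and Itgb8 down to 0.477 and Ltbp1 up to 0.567. By that length the mean of Itgav (2.64) also passed that of Tgfb2 (2.41) in Control. In HFD the order was Tgfb2 (4.02), Tgfb3 (3.85), Smad3 (3.28), Tgfbr1 (3.10), Itgav (2.31), Tgfbr2 (2.25), Itgb8 (1.80), Nrros (0.981), Ltbp1 (0.480) and Tgfb1 (0.0215). There Tgfbr2, Itgb8, Nrros and Ltbp1 each stood clear of the next, and the 5 pairs above overlapped. With the longest transcript as the length, the HFD mean of Itgb8 (2.37) passed that of Tgfbr2 (2.27). Nrros (down to 1.05) and Ltbp1 (up to 1.26) then overlapped as well. In HFD+Mino, Tgfb2 (2.44), Nrros (2.20), Tgfbr1 (2.11), Tgfb3 (1.73), Smad3 (1.62), Itgav (1.53) and Tgfbr2 (1.09) overlapped each with the next. Below them came Tgfb1 (0.309), Itgb8 (0.209) and Ltbp1 (0.0839), and only the step from Tgfbr2 to Tgfb1 was clear of overlap.

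The rest of the pathway was followed in lists of genes by role. Of all genes tested, 0.317% were called higher and 1.42% lower in HFD against Control. In HFD+Mino against HFD 1.98% were called higher and 2.16% lower, and 0.917% were HFD-higher in the 3-way comparison. Of 21 other genes of latency and activation, 1 fell in HFD against Control and rose in HFD+Mino against HFD, and the median log2 change was 0.30 and −0.54 in these comparisons. That gene was Itgb5, another beta subunit of alpha-v, with 58.1 ± 6.87 CPM in Control, 8.99 ± 0.394 in HFD, and 35.3 ± 24.4 under HFD+Mino (SD, n = 3). Its log2 change was −2.69 ± 0.407 (SE, FDR 0.00371) and then 1.97 (FDR 0.00973). Itgb5 was also the 1 gene called among 24 other integrin subunits, a list that shares Itgb1, Itgb3, Itgb5 and Itgb6 with the former and had medians of 0.17 and −0.33. Of 12 other receptors and co-receptors, 1 (Bmpr1b, a type I receptor for bone morphogenetic proteins) was higher in HFD in the 3-way comparison and fell in HFD+Mino against HFD. It stood at 12.7 ± 2.29, 26.3 ± 1.35 and 9.25 ± 1.34 CPM in Control, HFD and HFD+Mino (SD, n = 3), with a log2 change of −1.51 (FDR 0.00475) in the latter comparison. The list's medians were 0.48 and −0.85.

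Of 25 other SMADs and their regulators, 3 fell in HFD against Control, where 1.42% of all genes were called lower. In HFD+Mino against HFD, where 1.98% of all genes were called higher, 1 rose. The medians were 0.08 and 0.10. Smad4, the partner that SMAD3 needs in the nucleus, stood at 60.4 ± 11.3, 12.3 ± 1.42 and 32.6 ± 17.7 CPM in Control, HFD and HFD+Mino (SD, n = 3), with a log2 change of −2.30 (FDR 0.00401) in HFD against Control. Ppm1a, a phosphatase known to act on SMAD2 and SMAD3, stood at 94.6 ± 8.68, 24.2 ± 3.05 and 75.0 ± 9.05 CPM (SD, n = 3), with log2 changes of −1.96 (FDR 0.0005) and 1.63 (FDR 0.00168). Map3k7, the kinase TAK1 of the SMAD-independent branch, had a log2 change of −1.496 (FDR 0.0096) in HFD against Control. Of 22 TGF-beta target genes, 0 were called in HFD against Control (5 at an unadjusted p under 0.05), with a median of −0.20. DESeq2 and the likelihood ratio test each called 1 of them there, Acta2, among 6.84% and 5.57% of all genes. The 1 target that rose in HFD+Mino against HFD was Id1, with 18.9 ± 11.5, 9.60 ± 0.448 and 44.7 ± 18.8 CPM in Control, HFD and HFD+Mino (SD, n = 3) and a log2 change of 2.22 (FDR 0.00954), and the median was 0.62. There DESeq2 called Ctgf, Id1 and Tsc22d1 higher and Col1a1, Col1a2 and Col4a1 lower, among 22.4% of all genes called. Of 23 other ligands and secreted antagonists of the family, 21 could be tested and 0 were called in either comparison by any of the 3 tools, with 5 and 2 at an unadjusted p under 0.05. In HFD+Mino against Control 0 genes of these lists were called by any of the 3 tools, with 1 to 5 per list at an unadjusted p under 0.05.

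The replicate block and the leaving out of HFD+Mino replicate 3 raised these counts. The block gave 7 called genes among the latency genes, 3 among the receptors, 8 among the SMADs and their regulators, 7 among the targets and 3 among the integrins in HFD+Mino against HFD, where the plain fit called 1 in each. Over all genes this fit called 25.6% in that comparison. DESeq2 (22.4% of all genes) called 3, 4, 7, 6 and 3 of the same lists and the likelihood ratio test (19.1%) 3, 3, 7, 4 and 3. With the block, Id1 was also called higher in HFD+Mino than in Control, among 3.18% of all genes called. Without HFD+Mino replicate 3, 2 latency genes (Itgb5 and Thbs2), Smad4 and Junb were called lower in HFD+Mino than in Control. That fit called 6.28% of all genes there.

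Genes of the resting state of microglia, which depends on TGF-beta, showed no change called by the quasi-likelihood test. Of 14 such genes 0 were called in HFD against Control by any of the 3 tools (2 at an unadjusted p under 0.05), and the median log2 change was 0.20. Nor was any in HFD+Mino against HFD, where 6 had an unadjusted p under 0.05, while DESeq2 called Siglech and Adgrg1, the likelihood ratio test called Adgrg1, and the block gave 4 calls. Among those with the highest mean CPM, Adgrg1 stood at 154.5 ± 39.0, 198 ± 9.50 and 86.1 ± 43.4 CPM and Csf1r at 63.9 ± 6.16, 100.5 ± 9.60 and 51.3 ± 30.9 CPM in Control, HFD and HFD+Mino (SD, n = 3). P2ry12, the purinergic receptor of resting microglia, added to these after its values were seen, was at 35.7 ± 11.7, 36.1 ± 1.53 and 35.0 ± 11.5 CPM in the 3 groups (SD, n = 3). Summed microglial markers spanned 213 to 463 CPM in Control, 274 to 299 in HFD and 406 to 709 in HFD+Mino, with 0 of 9 called in HFD against Control by any of the 3 tools (2 at an unadjusted p under 0.05). Of these 9, 0 were called in HFD+Mino against HFD by the main test (9 at an unadjusted p under 0.05), whereas DESeq2 and the likelihood ratio test each called 6 higher and 1 lower, and the block called 8 higher and 1 lower, in fits that called 22.4%, 19.1% and 25.6% of all genes.

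Markers of oligodendrocyte precursors, glia that carry integrin beta-8, were highest in HFD in sum. The summed CPM of Pdgfra, Cspg4 and Gpr17 was 39.5, 46.5 and 75.0 for Control, 125, 120 and 119 for HFD and 34.2, 40.7 and 45.1 for HFD+Mino, so HFD lay above both other groups. Of the 3 markers 2 were called higher in HFD in the 3-way comparison, Cspg4 (FDR 0.00323) and Gpr17 (FDR 0.0036), among 0.917% of all genes. Both were called lower in HFD+Mino against HFD, by 1.71 and 2.25 on the log2 scale, among 2.16% of all genes. In HFD against Control, where 0.317% of all genes were called higher, Cspg4 was called (FDR 0.00449) and Gpr17 was not (FDR 0.0122). Pdgfra, at 29.9 ± 10.8, 47.5 ± 6.20 and 22.5 ± 4.03 CPM (SD, n = 3), was not called by the main test, but was called lower in HFD+Mino than in HFD by DESeq2, the likelihood ratio test and the block. Those fits called 22.4%, 19.1% and 25.6% of all genes there. The part of oligodendrocyte precursors in the Itgb8 values was not tested. Markers of astrocytes, which also carry Itgb8, summed to 4410 to 6470 CPM in Control, 4740 to 5560 in HFD and 4100 to 4880 in HFD+Mino. Of these 7 markers 0 were called in the 3-way comparison by any of the 3 tools (4 at an unadjusted p under 0.05). In HFD+Mino against HFD the main test called 0 (4 at an unadjusted p under 0.05). DESeq2 and the likelihood ratio test each called Aldh1l1, Aqp4 and Gja1 lower, among 22.4% and 19.1% of all genes called.

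The genes whose profile over the 9 samples was nearest to that of Itgb8 were on none of the pathway lists. Nearness was the root mean square difference between log2(CPM + 0.5) values centred on their mean, a description that shares libraries and depth among all genes. Among the nearest were Gm340 (0.27), Pcdhgb1, a gamma-protocadherin (0.32), Gm19378 (0.35) and Ttyh2, a Tweety family membrane protein (0.36). Gm340 averaged 1.08, 4.24 and 0.280 CPM in Control, HFD and HFD+Mino. Among the members the nearest was Ltbp1 (0.76), with 799 genes outside the list closer to Itgb8 than it was, followed by Tgfbr2 (0.83) and Smad3 (0.85), and the farthest was Tgfb1 (2.11).

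Length and base composition moved with the changes of all genes, with Itgb8 at the long end of the first scale and Tgfb1 at the high end of the second. Itgb8 has 11060 nt of exons, Itgav 10744 nt and Ltbp1 10691 nt, which put them in the longest decile of the 15625 tested genes with a length (median 4334 nt). In that decile the median log2 change was 0.48 in HFD against Control and −0.60 in HFD+Mino against HFD, and 3.39% of genes were HFD-higher in the 3-way comparison. In the shortest decile the medians were −0.27 and 1.11, and 0% were HFD-higher. With the length trend removed, Itgb8 was at a log2 change of 1.60 in HFD against Control and −2.50 in HFD+Mino against HFD. In the same fit Tgfb1 was called in HFD against Control (log2 −4.56, FDR 0.00845), and Itgav was at −0.04. In HFD+Mino against HFD that fit gave smaller changes for Tgfbr2 (−0.53, FDR 0.146), Smad3 (−0.65, FDR 0.107), Tgfb2 (−0.33) and Tgfbr1 (−0.09). Itgav (−0.01) and Ltbp1 (−1.93) were smaller there too. Tgfb3 (−1.20), Nrros (1.31) and Tgfb1 (4.17) were not.

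Tgfb1, at 84% GC, was at the lower edge of the decile of genes with the GC-richest 100-nt window (84% to 98%). Itgb8, at 68%, lay below the median of 73%. In that highest decile, which also held Ltbp1, the medians were −0.38 and 0.25, and 9.28% of genes were HFD-lower in the 3-way comparison, against 1.21% of all genes. In the decile just below (81% to 83%) the medians were 0.11 and −0.36, and 0.703% of genes were HFD-lower. The GC-richest 100 nt within the coding sequence are shown for both genes to make this contrast visible, in lower case throughout since no base is singled out.
Tgfb1: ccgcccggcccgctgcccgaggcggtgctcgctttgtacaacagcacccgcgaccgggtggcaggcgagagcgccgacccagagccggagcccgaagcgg
Itgb8: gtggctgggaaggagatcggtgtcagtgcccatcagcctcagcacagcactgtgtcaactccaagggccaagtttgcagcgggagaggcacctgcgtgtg
The Tgfb1 window (76% GC) lay at chr7:25688073-25688172 in exon 1 on the plus strand, and the Itgb8 window (61% GC) at chr12:119168086-119168185 in exon 11 on the minus strand. With the trend on the GC-richest window removed, Tgfb1 was at −4.31 in HFD against Control (FDR 0.0131) and 3.93 in HFD+Mino against HFD (FDR 0.00948), and Itgb8 at 1.99 and −3.12. Beyond these fits, the part of length and base composition in the members' values was not tested.

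**Figure D4:**
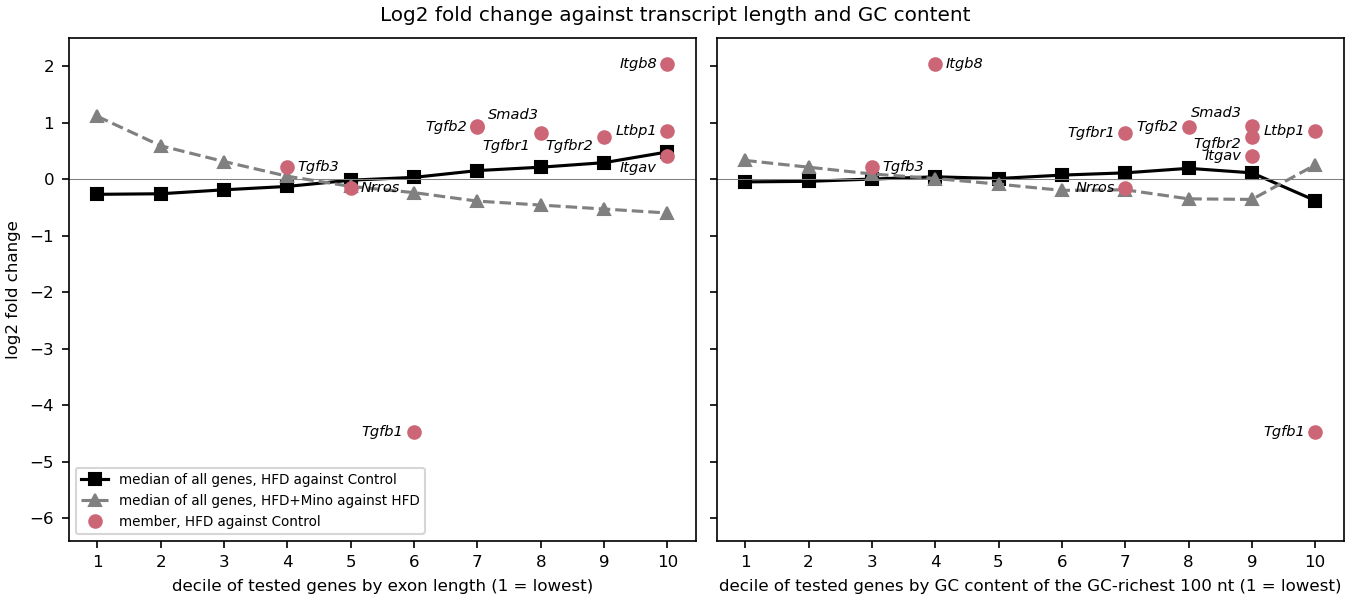
Median log2 fold change of all tested genes (squares, HFD against Control; triangles, HFD+Mino against HFD) in each decile by exon length and by GC content of the GC-richest 100 nt, with the 10 genes' own log2 change in HFD against Control as circles. Tgfb1 (−4.47) stands below the median of its GC decile (−0.38), and Itgb8 (2.03), chosen for its HFD level, is in the length decile with a median of 0.48.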

How the data were processed

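Reads (SMARTer Ultra Low Input v4 cDNA, Nextera XT) were mapped by the authors with HISAT2 to mm10, and the deposited values are raw featureCounts counts per Entrez gene. Settings for strand and multiple mapping are not given in the sources used here. The 10 genes and all lists were chosen with earlier results of these data known. Counts of all 9 samples were fitted with 1 mean per group in edgeR 4.0.16 (R 4.3.3; filterByExpr, TMM, quasi-likelihood F tests), and a gene was called at FDR under 0.01 (Benjamini-Hochberg over 17344 genes) and 1.5-fold. In the 3-way test HFD had also to be the highest or lowest group and 1.5-fold from the mean of the group means. The SE of a log2 change was derived from its test. It was the absolute change fitted without edgeR's prior count, divided by the square root of the F statistic. The log2 changes given include that prior count. CPM are counts per 1000000, scaled by TMM. No label says more of the replicates than that they are independent mice. The scripts were checked on simulated counts.

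Named genes were the 10, up to 4 called genes of smallest FDR per pathway list, the 3 homeostatic microglial genes of highest mean CPM, the 5 profiles nearest to Itgb8 and the highest gene of each marker list. Some genes that this rule names are not reported here. Positions, exon lengths and sequences came from GENCODE M21 (GRCm38). Replicate numbers are those of the sample titles, and the HFD count columns carry other numbers. Same-numbered Control and HFD+Mino samples deviated together (r 0.194, 0.24 and 0.395), whereas same-numbered HFD samples did not (Control and HFD −0.179 to −0.0143, HFD and HFD+Mino −0.203 to −0.0188). However, HFD replicate 1 deviated with replicate 2 of Control (0.191) and of HFD+Mino (0.189). HFD replicate 2 did so with replicate 1 of Control (0.158) and of HFD+Mino (0.155). A block with HFD paired in that way was not tested. The labels name no shared batch. An alternative fit therefore gave Control and HFD+Mino a block for the number. The other alternatives were DESeq2 1.42.0, the edgeR likelihood ratio test, other normalization, filters and thresholds, length or GC trends removed, and each sample left out.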

Additional observations from a re-analysis of the deposited data

How the results depend on the processing

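The numbers of called members in the 3-way comparison, in HFD against Control, in HFD+Mino against HFD and in HFD+Mino against Control were 1, 1, 1 and 0. The last stayed at 0 under every alternative run. In the order of the first 3 comparisons they were 4, 2 and 4 with DESeq2 (13.5%, 6.84% and 22.4% of all genes called) and with an FDR under 0.05 (2258 genes in the first, 5.77% and 27.4% in the others), 4, 2 and 3 with the edgeR likelihood ratio test (12.9%, 5.57% and 19.1%), and 2, 2 and 2 without a filter on low counts (5.19%, 1.92% and 7.61%). The replicate block in Control and HFD+Mino gave 2, 2 and 3 (13.2%, 6.22% and 25.6%). With the GC trend also removed it gave 2, 2 and 3 (13.5%, 7.67% and 27.9%), and with the length trend also removed 2, 2 and 2 (8.49%, 5.22% and 16.4%). In HFD against Control RLE size factors gave 2 (1.8%) and removal of the GC trend gave 0 (2.93%). In HFD+Mino against HFD removal of the GC trend gave 2 (8.56%). An alternative added after seeing the data, which took out the trend on the GC-richest 100 nt, also gave 2 there (5.3%). Leaving out single samples gave 0 to 3 in the 3-way comparison, with 0.0168% to 13.4% of all genes called. It gave 0 to 2 in HFD against Control (0.335% to 3.08%) and 1 to 4 in HFD+Mino against HFD (0.162% to 21.4%). The counts include Itgb8, which was chosen by these samples. It was not among the called genes in HFD against Control with the length or GC trend removed. The block in all 3 groups changed no call of a member. With a mean count of at least 50, Tgfb1 was not tested.

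Signs turned in members that were not called. Itgav was at −0.01 in the 3-way comparison and −0.04 in HFD against Control with the length trend removed. In HFD+Mino against Control Itgav was at 0.06 with the GC-richest trend removed, 0.19 when Control replicate 1 was left out and 0.01 when HFD+Mino replicate 3 was. There Smad3 was at 0.18 with the length trend removed, 0.19 with the block as well, 0.17 with the GC-richest trend removed, 0.18 with Control replicate 3 left out and 0.03 with HFD+Mino replicate 1 left out, and Tgfbr1 at −0.11 without HFD+Mino replicate 2. Over the fits without 1 sample these values ran from −0.55 to 0.19 for Itgav, from −0.26 to 0.18 for Smad3 and from −0.11 to 0.44 for Tgfbr1. The causes were not tested. With 3 samples a group and 10 counts of Tgfb1 in HFD, the size of its change is uncertain (log2 −5.21 to −3.86 over the alternatives).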

Other observations

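The remaining marker lists gave these values. Of the highest gene of each list (Ctss, Pf4, Aldoc, Pdgfra, Mbp, Cldn5, Acta2, Snap25, Avp, Tmem212, Kl, Dcn and Hba-a1), 0 were called by the edgeR quasi-likelihood test in any comparison, with 7, 6, 7 and 4 at an unadjusted p under 0.05 in the 3-way comparison, HFD against Control, HFD+Mino against HFD and HFD+Mino against Control. In that order DESeq2 called 3, 1, 3 and 0 of them and the likelihood ratio test 1, 1, 3 and 0. Of all genes DESeq2 called 13.5%, 6.84%, 22.4% and 1.56%, and the likelihood ratio test 12.9%, 5.57%, 19.1% and 0.611%. Oligodendrocyte markers summed to 3750 to 29200 CPM in Control, 2680 to 6890 in HFD and 2220 to 5890 in HFD+Mino. Neuronal markers summed to 4630 to 7210, 3410 to 5300 and 3730 to 3970 CPM, and ependymal and tanycyte markers to 4.2 to 89.6, 99.6 to 179 and 202 to 418 CPM. Endothelial markers summed to 98 to 153, 86.4 to 116 and 55.9 to 98.1 CPM, and Kdr, the VEGF receptor, fell in HFD+Mino against HFD (log2 −2.16, FDR 0.00609), where the list's median was −0.50 and Cldn5 was at 0.53. Mural cell markers summed to 51.9 to 82.7, 39.7 to 45.6 and 35.8 to 85.2 CPM, and Pdgfrb fell in the same comparison (log2 −1.57, FDR 0.0095), against a list median of 1.26 and values of 1.56 for Rgs5, 1.37 for Kcnj8 and 1.26 for Acta2, not called by the main test. Both genes were named after their values were seen. Meningeal fibroblast markers summed to 16.9 to 39.6, 17.5 to 22.6 and 19.3 to 52.7 CPM, blood markers to 27 to 101, 20.9 to 49 and 23 to 148 CPM, border macrophage markers to 2.03 to 3.28, 2.26 to 2.76 and 2.6 to 7.8 CPM and choroid plexus markers to 1.84 to 3.65, 2.59 to 8.98 and 1.57 to 4.51 CPM. The part of these cell types in the members' values was not tested.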
